A study of Homo sapiens with 6 samples.

Results

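Iron uptake, storage and export genes were compared between libraries labelled as MDA-MB-231 PTX-resistant BCSC with LINC00115 KD and those labelled WT. The genes were the 9 rows of the deposited count table whose symbol equals Tfrc, Fth1, Ftl1, Slc40a1, Slc11a2, Trf, Ireb2, Aco1 or Cp, out of 22989 rows. All 9 were found, and 8 of them passed the expression filter, as did 13497 rows in all. RNA was sequenced in 3 libraries of each group to ask what the long noncoding RNA LINC00115 does in breast cancer stem cells. MDA-MB-231, the line the labels name, is from a human breast cancer of the triple-negative type, PTX is paclitaxel, and the study isolated the BCSC of the resistant line by sorting for high aldehyde dehydrogenase activity. A short hairpin RNA was used for the knockdown. The study describes more than one such hairpin and names sh115-2 for its plot of this comparison, while the labels use sh115-1 to sh115-3 as names of the KD libraries and do not say whether these came from separate cultures. The single control group is called WT in the labels, while the paper's experiments use a control hairpin, so effects of a hairpin as such and of losing LINC00115 cannot be told apart. No row is named LINC00115, so the knockdown could not be checked in these counts. The p-values measure the spread between these libraries, which may be technical.

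The rows carry symbols in the style of mouse genes, although the labels name a human line. The counts may therefore not come from the labelled human line, and every value below rests on the labels for what the cells are. Of 5783 rows with Gm or Rik names, given to mouse genes with no known function, 277 had at least 100 counts in every library. The light ferritin chain is listed as Ftl1 and transferrin as Trf, the mouse symbols for the genes called FTL and TF in human. No mouse sequence was used here, so neither positions nor sequences are given, and levels are not compared between genes because the length counted for each is not known. Library totals lay between 36979221 and 38799331 counts. Of the 11 genes fixed as markers of the line and of other breast cell classes, Vim had 126885 to 145878 counts, Cd44 32751 to 36274, Epcam at most 5 and Pgr at most 3. Of the 11, 8 passed the expression filter. Against 37.8% of all genes tested in each direction, all KD libraries exceeded all WT libraries in 6 of the 11 and the reverse held in 0. The keratin genes Krt8 (17687 to 18075 counts in WT, 26641 to 29602 in KD) and Krt18 (4856 to 4890 and 8498 to 9369) were among these. So were the receptor genes Erbb2 (592 to 689 and 1029 to 1061) and Esr1 (24 to 29 and 82 to 105) and the epithelial cadherin gene Cdh1 (1 to 3 and 22 to 31). The mesenchymal gene Vim was also among these (126885 to 131022 and 138428 to 145878), while the keratin genes Krt5 and Krt14 did not separate the groups. Ferritin has processed pseudogenes, and reads that match several copies may have been split in ways not known here. The only row named as a ferritin pseudogene, Ftl1-ps2, had 1 to 5 counts.

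Cells take up iron bound to transferrin through the transferrin receptor, reduce it and move it out of the endosome through DMT1. Iron that is not used is stored in the shell of heavy and light ferritin chains, and surplus leaves through ferroportin, assisted by ferroxidases such as ceruloplasmin. IRP1 and IRP2 read the iron supply by binding iron-responsive elements, hairpins in the mRNAs. They block translation where the hairpin lies upstream of the coding sequence, as in ferritin and ferroportin mRNA, and stabilize the mRNA where hairpins lie downstream, as in transferrin receptor mRNA. Tumour cells, breast cancer stem cells among them, are known for a high demand for iron. Several genes of iron uptake are also known HIF1 targets, which is the pathway the study went on to examine.

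In the libraries labelled LINC00115 KD, the storage gene Fth1 and the importer gene Slc11a2 were higher, Tfrc and Aco1 were slightly higher, and the ferroxidase gene Cp was lower. Trf was also higher, but on few counts. Ftl1 and Ireb2 did not pass the test, and Slc40a1 had at most 2 counts in any library. Of the 8 members tested, 5 rose and 1 fell at an adjusted p under 0.05 (edgeR's quasi-likelihood test, Benjamini-Hochberg over all genes tested). Of all genes tested, 36.7% were higher and 36.7% lower by that rule, 73.4% in all, so passing it sets no gene apart in this comparison. Trf, counted among the 5 that rose, passed the expression filter through the KD libraries alone, so it could only have been found higher. With the study's additional threshold of a fold change over 2, only Trf was called higher, and 0 members were called lower by either edgeR or DESeq2. Without the fold threshold 1 member was lower at an unadjusted p under 0.05, which was Cp. Of all genes tested, 10.2% were called higher and 9.98% lower at both thresholds, 20.2% in all. The groups did not overlap in 6 of the 8 members tested, higher in 5 and lower in 1, against 75.6% of all genes tested (37.8% higher and 37.8% lower). Trf is again among the 5 that were higher.

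**Figure D1:**
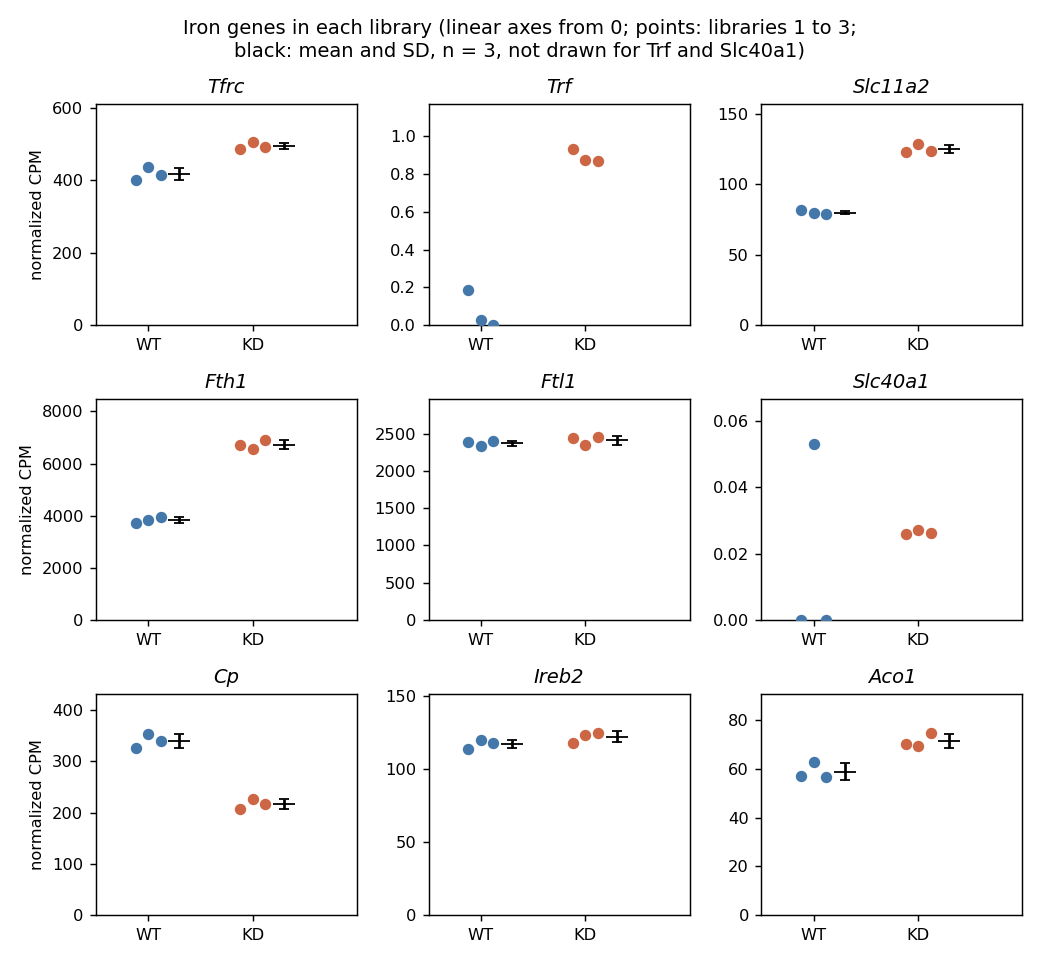
Normalized CPM of the 9 iron genes in each library, on linear axes that start at 0, with WT libraries in blue and KD libraries in orange; black marks are the mean and SD of 3 libraries and are left out for Trf and Slc40a1, which had few counts. Fth1 lies between 3722 and 3941 in WT and between 6560 and 6915 in KD, while the 2 groups overlap for Ftl1 and Ireb2.

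Fth1 encodes the heavy chain of ferritin, which oxidizes iron as it enters the shell. In normalized CPM (counts relative to the TMM-scaled library total), its levels were 3722, 3852 and 3941 in the WT libraries and 6696, 6560 and 6915 in the KD libraries. Every KD library lay above every WT library, and the gap between the groups was many times the spread within either. The mean rose from 3838 ± 110.4 to 6723 ± 179 (SD, n = 3 each), with a log2 fold change of 0.81 (SE, standard error, 0.027, adjusted p = 4.87e-24, edgeR), or 1.75-fold with a 95% interval from 1.69 to 1.82. The upper end of that interval stays under the fold change of 2 that a call needed. Among all genes tested, 28.2% had a larger fitted change in either direction.

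Ftl1 encodes the light chain, which helps to form the iron core and lacks the oxidizing site. Its levels were 2385, 2336 and 2396 normalized CPM in the WT libraries and 2438, 2345 and 2451 in the KD libraries. The libraries of the 2 groups overlapped. The log2 fold change was 0.02 (adjusted p = 0.448, edgeR), with a 95% interval of the fold from 0.978 to 1.06. Its sign was negative with upper quartile scaling (−0.018), and it missed the test under each alternative that was run.

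The heavy and light chain mRNAs changed unequally, and the intervals of their folds did not overlap. The ratio of Fth1 to Ftl1 counts within a library, in which the scaling cancels, had a log2 value of 0.642, 0.721 and 0.718 in the WT libraries and 1.458, 1.484 and 1.496 in the KD libraries. Its mean was 0.69 ± 0.045 in WT and 1.48 ± 0.020 in KD (SD, n = 3 each), a difference of 0.79 on the log2 scale with no overlap. The exact two-sided permutation test gave p = 0.1, the smallest that 3 libraries against 3 allow, and 0.1 after adjustment over the 2 ratios that could be computed. These are ratios of reads, not of molecules, since the lengths counted are not known. Fth1 took 0.386% ± 0.0090 of all counts in WT and 0.668% ± 0.0167 in KD (SD, n = 3 each), and Ftl1 took 0.239% and 0.240%.

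**Figure D2:**
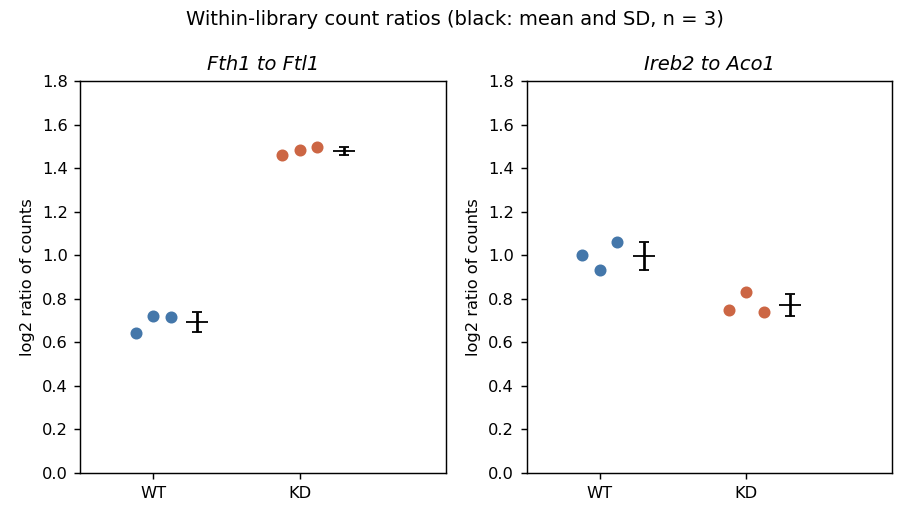
Log2 ratio of counts within each library for Fth1 to Ftl1 and for Ireb2 to Aco1, with WT libraries in blue, KD libraries in orange and the mean and SD of 3 libraries in black. The Fth1 to Ftl1 ratio lies between 0.642 and 0.721 in WT and between 1.458 and 1.496 in KD, and the Ireb2 to Aco1 ratio is lower in each KD library than in any WT library.

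Slc11a2 encodes DMT1, the transporter that carries ferrous iron across the plasma and endosomal membranes. Its levels were 81.4, 79.4 and 78.9 normalized CPM in the WT libraries and 123.0, 128.6 and 123.4 in the KD libraries. All 3 KD libraries lay above all WT libraries, with a spread of a few CPM in each group. The log2 fold change was 0.65 (SE 0.043, adjusted p = 1.86e-15, edgeR), or 1.56-fold with a 95% interval from 1.47 to 1.66. Some mRNAs of this gene carry an iron-responsive element and others do not, and counts per gene do not tell them apart.

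Tfrc encodes the transferrin receptor, the main entry of iron into dividing cells. Its levels were 401, 436 and 416 normalized CPM in the WT libraries and 487, 505 and 492 in the KD libraries. The groups did not overlap. The log2 fold change was 0.24 (SE 0.034, adjusted p = 7.53e-08, edgeR), or 1.18-fold with a 95% interval from 1.13 to 1.24. Of all genes tested, 70.9% had a larger fitted change. The receptor and the importer were both higher, Slc11a2 by 56.4% and Tfrc by 18.4%. Their mRNAs can both carry an iron-responsive element downstream of the coding sequence, but its part in these changes was not tested.

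Trf encodes transferrin, the iron carrier of blood plasma that the liver secretes. It had 7, 1 and 0 counts in the WT libraries and 36, 32 and 33 in the KD libraries. The KD libraries lay close to each other, and 1 WT library held nearly all of the WT counts. The log2 fold change was 3.595 (SE 0.686, adjusted p = 1.9e-05, edgeR). The pooled counts, 101 against 8, gave a ratio per total count of 12.4 with an exact 95% interval from 6.08 to 29.6, which covers counting error only. Without WT replicate 1 the ratio was 66.6 (11.7 to 2658) and the log2 fold change 5.76. The gene passed the expression filter through the KD libraries alone, so it could only have been found higher.

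Markers of other tissues were read beside Trf. Any gene higher in KD shares its pattern, so a shared direction alone shows no link between them. In summed normalized CPM, 12 lung epithelium markers lay between 1.78 and 4.23 in the WT libraries and between 74.3 and 84.7 in the KD libraries, and in 11 of the 12 all KD libraries exceeded all WT libraries. For 10 kidney tubule markers the sums were 9.37 to 9.80 and 25.1 to 29.1, with 8 of 10 higher and 1 lower, and for 8 erythroid markers in the table they were 0.0531 to 0.185 and 1.58 to 2.48, with 4 of 8 higher. Most of the kidney sum in WT was Cubn, the 1 kidney marker that was lower. Its levels were 8.12 to 8.36 normalized CPM in WT and 5.86 to 6.49 in KD. Of all genes tested, 37.8% were higher and 37.8% lower without overlap. That share covers only genes past the expression filter, which 11 lung, 8 kidney and 2 erythroid markers passed. It is therefore no like measure for the markers with few counts. Hepatocytes are the best known source of transferrin, and their 9 markers in the table summed to 0 to 0.371 in WT and 0.0790 to 0.388 in KD. Alb, the defining gene of hepatocytes, had at most 1 count in any library. The part of lung, kidney or erythroid RNA in the Trf counts was not tested. In bulk samples, more cells of a type and more RNA per cell cannot be told apart.

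**Figure D3:**
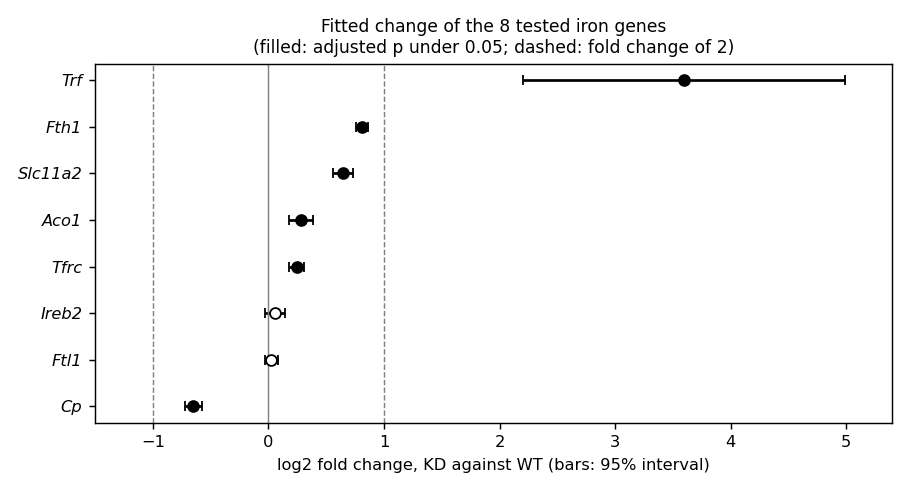
Fitted log2 fold change of the 8 tested members, KD against WT, with 95% intervals; filled points passed an adjusted p under 0.05 and dashed lines mark a fold change of 2. Trf lies beyond the dashed line with a wide interval (2.20 to 4.99), Fth1 (0.81), Slc11a2 (0.65) and Cp (−0.65) lie inside it, and the intervals of Ireb2 and Ftl1 include 0.

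Slc40a1 encodes ferroportin, the only known exporter of iron from mammalian cells. It had 0, 2 and 0 counts in the WT libraries and 1 count in each KD library. A count of 0 allows up to 3 counts, so ferroportin mRNA was at or under the limit of detection in both groups, and no fold is given. The ratio of Tfrc to Slc40a1 counts has no value in libraries with 0 counts. With 0.5 count added, its log2 value was lower in KD by a mean difference of −0.565, which rests on the 5 counts of Slc40a1 and is not read as a change. Macrophages, a main site of ferroportin, had 12 marker genes and other leukocyte genes in the table that summed to 46.2 to 61.5 normalized CPM in WT and 53.2 to 57.7 in KD. In 1 of the 12 all KD libraries exceeded all WT libraries and in 2 they were below, against 37.8% of all genes tested in each direction. Only 4 of the 12 passed the expression filter on which that share rests. The sum hides genes that went opposite ways. Lyz2 had 33, 52 and 5 counts in WT and 249, 250 and 247 in KD. Mrc1 had 334, 277 and 226 in WT and 61, 41 and 31 in KD. Most of the sum was Cd68, which other cells also express, with 1397 to 1925 counts, while Cd163 had at most 1 count and Cd3e had 0 in every library.

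Cp encodes ceruloplasmin, a copper ferroxidase that loads exported iron onto transferrin. Its levels were 326, 353 and 340 normalized CPM in the WT libraries and 207, 226 and 218 in the KD libraries. All 3 KD libraries lay below all WT libraries. The mean fell, from 340.0 ± 13.3 in WT to 217 ± 9.35 in KD (SD, n = 3 each), with a log2 fold change of −0.65 (SE 0.037, adjusted p = 3.46e-17, edgeR), or a fold of 0.638 with a 95% interval from 0.605 to 0.673. Cp was the only member that passed the test in the lower direction. The gene of a second ferroxidase, Heph, had at most 5 counts in any library and was not tested.

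Aco1 encodes IRP1, which is a cytosolic aconitase while it holds an iron-sulfur cluster and binds iron-responsive elements without it. Its levels were 57.0, 62.9 and 56.6 normalized CPM in the WT libraries and 70.2, 69.6 and 74.9 in the KD libraries. The groups did not overlap. The log2 fold change was 0.28 (SE 0.053, adjusted p = 1.44e-05, edgeR), or 1.22-fold with a 95% interval from 1.13 to 1.31.

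Ireb2 encodes IRP2, which binds the same hairpins and is degraded when iron is plentiful. Its levels were 114.1, 119.9 and 118.1 normalized CPM in the WT libraries and 117.9, 123.7 and 125.0 in the KD libraries. The lowest KD library lay within the range of the WT libraries. The log2 fold change was 0.06 (adjusted p = 0.205, edgeR), with a 95% interval of the fold from 0.982 to 1.104. The log2 ratio of Ireb2 to Aco1 counts was 1.00, 0.93 and 1.06 in WT and 0.75, 0.83 and 0.74 in KD. The mean difference was −0.23, again without overlap and with p = 0.1 in the exact two-sided permutation test (0.1 after adjustment over 2 ratios). Counts of mRNA do not measure the activity of either protein, both of which are controlled after transcription.

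Other genes of iron handling were described from lists, each read against the same background. Of 62 such genes with a row, 54 were tested, 30 rose and 12 fell at an adjusted p below 0.05, and 8 were called higher and 3 lower at both thresholds (edgeR). The 30 and the 8 include Epas1 and Abcg2, which passed the expression filter only because of the KD libraries. Both also enter the shares and the median given next. The share called was 20.4%, close to the 20.2% of all genes tested. The median log2 fold change was 0.20, against −0.0061 over all genes tested. By the adjusted p alone 77.8% passed, against 73.4% of all genes tested (36.7% higher and 36.7% lower). In the single lists this share ran from 75.0% to 87.5%.

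Among genes of cellular iron entry and reduction, 8 of 10 in the table were tested, 5 rose and 2 fell at an adjusted p below 0.05, and 3 were called higher. In shares, 87.5% passed and 37.5% were called, against 73.4% and 20.2% of all genes tested. Lcn2, which encodes lipocalin 2, a binder of iron-carrying siderophores, had 1076, 1056 and 1111 normalized CPM in WT and 2292, 2257 and 2449 in KD. All KD libraries were above all WT libraries, and the log2 fold change was 1.11 (SE 0.031, adjusted p = 3.16e-26, edgeR). Steap4, a metalloreductase gene, rose from 45, 29 and 77 counts to 204, 226 and 240 (log2 fold change 2.15, adjusted p = 1.53e-09, edgeR). Slc39a8, a gene for a divalent metal transporter, had 11, 13 and 10 counts in WT and 14, 43 and 25 in KD (log2 fold change 1.27, adjusted p = 0.0328, edgeR). It lost its call in 9 of 15 alternatives, among them DESeq2 (adjusted p = 0.0623) and every fit without a WT library (0.065 to 0.107), and without KD replicate 2 the log2 fold change was 0.77 (adjusted p = 0.276, the highest over its alternatives, of which the lowest was 0.0109).

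Genes of heme synthesis, transport and breakdown went both ways, with 8 of 17 tested higher and 5 lower by the adjusted p and 4 called higher and 2 lower. In shares, 76.5% passed and 35.3% were called, against 73.4% and 20.2% of all genes tested. Abcg2, among the 4 called higher, was tested only because of the KD libraries. Alas1 encodes the first and rate-limiting enzyme of heme synthesis in most cells. Its levels were 105, 101 and 93.8 normalized CPM in WT and 46.1, 45.8 and 43.7 in KD, a log2 fold change of −1.15 (SE 0.051, adjusted p = 2.82e-20, edgeR). Every KD library was below every WT library. Ppox, which encodes the enzyme that forms protoporphyrin, also fell (−1.04, adjusted p = 2.32e-09, edgeR), but without KD replicate 2 its change was −0.90 and without KD replicate 3 just under a fold of 2. Fech, whose enzyme inserts the iron, was at 58.4 ± 2.60 and 61.6 ± 1.54 normalized CPM (SD, n = 3 each) and did not pass the test (adjusted p = 0.178, edgeR). Other synthesis genes were higher, Uros with a log2 fold change of 0.76 and Alad with 0.45, or lower, as Urod (−0.53).

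On the side of heme breakdown and export, Hmox1 encodes heme oxygenase 1, which frees the iron of heme. Its levels were 163, 138 and 140 normalized CPM in WT and 285, 269 and 285 in KD, a log2 fold change of 0.93 (SE 0.045, adjusted p = 3.87e-19, edgeR). The groups did not overlap, and its fold stayed under 2 except without WT replicate 1 (log2 fold change 1.007). Hmox1 was chosen after its values were seen. Flvcr1, long described as a heme exporter gene, rose from 15.1 ± 1.73 to 41.0 ± 2.32 normalized CPM (SD, n = 3 each; log2 fold change 1.44). Other breakdown genes fell, Blvra, also a biliverdin reductase gene, from 44.7 ± 1.26 to 24.7 ± 1.28 normalized CPM (SD, n = 3 each; −0.85, adjusted p = 7.86e-14, edgeR) and Hmox2, which encodes the constitutive heme oxygenase, by a smaller amount (−0.26, adjusted p = 0.000358, edgeR). Blvrb, a further biliverdin reductase gene, was called higher (1.03), but not with upper quartile scaling (0.99). Abcg2, a drug efflux pump gene that also moves porphyrins, rose from 15, 18 and 5 counts to 143, 153 and 140 (3.51). The WT libraries alone would not have taken Abcg2 past the expression filter, so it was tested only because of the KD libraries. Hp, which encodes the hemoglobin carrier haptoglobin, rose from 15, 23 and 23 counts to 360, 336 and 377 (4.13, adjusted p = 1.88e-18, edgeR). The sums of the lung, kidney and erythroid markers given above were also higher in KD. The part of such RNA in the Hp and Abcg2 counts was not tested.

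**Figure D4:**
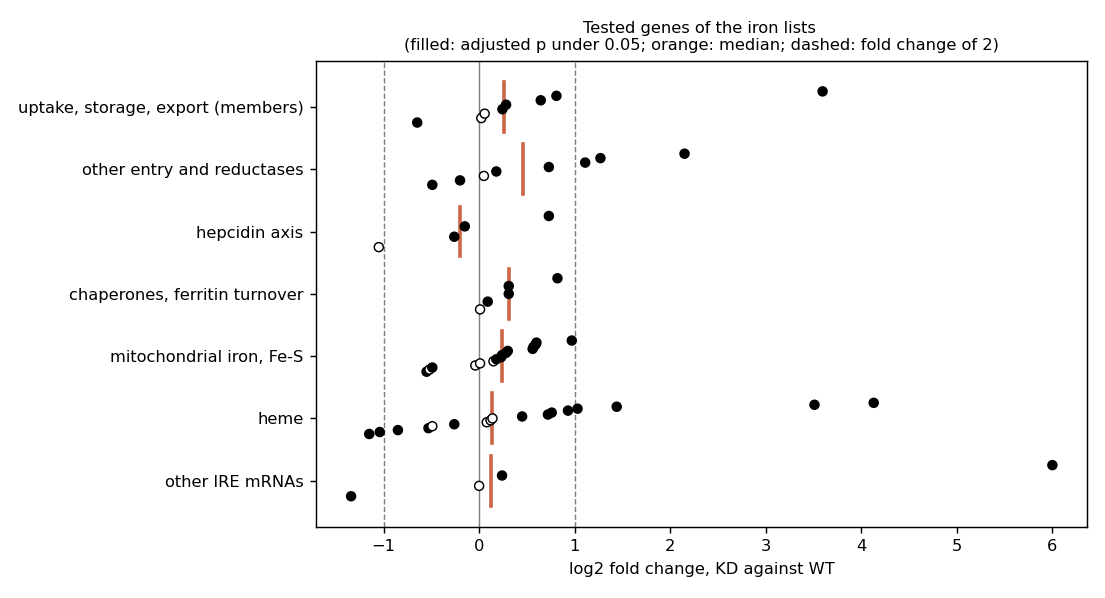
Fitted log2 fold change of each tested gene, KD against WT, for the 8 tested members and the 6 other iron lists; filled points passed an adjusted p under 0.05, orange lines are medians and dashed lines mark a fold change of 2. The mitochondrial list lies inside the dashed lines, and the heme list runs from Alas1 (−1.15) to Hp (4.13).

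Genes of mitochondrial iron import and iron-sulfur cluster assembly had 10 of 16 tested genes higher and 2 lower by the adjusted p, with a median log2 fold change of 0.24. None passed both thresholds in edgeR or DESeq2, and the same 10 and 2 were the counts at an unadjusted p under 0.05. Against 73.4% of all genes tested, 75.0% of this list passed by the adjusted p. The largest change was that of Iba57, an iron-sulfur cluster assembly factor gene, which rose from 3.06 ± 0.760 to 6.0 ± 0.578 normalized CPM (SD, n = 3 each; log2 fold change 0.97, adjusted p = 2.83e-05, edgeR). It was past a fold of 2 in 4 of the 6 fits with a library left out, with a highest log2 fold change of 1.14 without WT replicate 1.

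Among genes of iron chaperones, ferritin turnover and ferroxidases, 4 of 5 tested were higher and 0 lower, also at an unadjusted p under 0.05, and 0 passed both thresholds in edgeR or DESeq2. The share passing by the adjusted p was 80.0%, against 73.4% of all genes tested. Herc2, which encodes a ubiquitin ligase linked to the turnover of the ferritin receptor NCOA4, changed most, from 61.6 ± 1.83 to 109 ± 5.22 normalized CPM (SD, n = 3 each; log2 fold change 0.82). Ncoa4 itself, whose protein carries ferritin to the lysosome, was at 47.0 ± 1.70 and 47.1 ± 0.615 normalized CPM (adjusted p = 0.938, edgeR). In the hepcidin axis, 4 of 7 genes in the table were tested, with 1 higher and 2 lower by the adjusted p, the counts also found at an unadjusted p under 0.05, and 0 past both thresholds in edgeR or DESeq2. By the adjusted p 75.0% of this list passed, against 73.4% of all genes tested. The list's largest fitted change was that of Bmp6, a ligand that induces hepcidin, with 35, 22 and 16 counts in WT and 7, 15 and 13 in KD (log2 fold change −1.05, adjusted p = 0.076, edgeR).

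Of 5 other mRNAs described with an iron-responsive element, 4 were tested. By the adjusted p 2 were higher and 1 lower, and 1 was called in each direction. The share passing by the adjusted p was 75.0%, close to the 73.4% of all genes tested. Of all genes tested, 20.2% were called, a share with which 4 genes are too few to be compared. Epas1, which encodes HIF2α and carries the element upstream of the coding sequence, had 0, 0 and 3 counts in WT and 85, 57 and 74 in KD. The pooled ratio was 70.9 with an exact 95% interval from 24.0 to 347, for counting error only, and with WT replicate 3, which holds all 3 WT counts, left out its lower bound was 38.0. Epas1 passed the filter through the KD libraries alone, so it could only have been found higher. The part of lung or kidney RNA in its counts was not tested. Cdc14a, a phosphatase gene whose element lies downstream, was lower, at 23.9 ± 1.23 in WT and 9.42 ± 0.201 in KD in normalized CPM (SD, n = 3 each; log2 fold change −1.34, adjusted p = 2.57e-15, edgeR). Among the tested mRNAs named here with an element upstream of the coding sequence, members included, Fth1 and Epas1 were higher, and Ftl1 did not pass the test. For Epas1 the filter allowed no other direction. Slc40a1, whose mRNA also carries the element there, had too few counts to be tested. Among the tested mRNAs named with elements downstream, Slc11a2, Tfrc and Cdc42bpa were higher (log2 fold changes 0.65, 0.24 and 0.24) and Cdc14a was lower.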

How the data were processed

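RNA-seq counts of 3 LINC00115 KD and 3 WT libraries were used. The authors mapped trimmed reads with HISAT2, to hg19 by the paper's methods and to hg38 by the submitters' processing notes, which also name featureCounts and DESeq2, and deposited 1 table of whole-number counts per gene without normalization. Neither the annotation nor the strand setting is given in the sources used here. Columns were matched to samples by their labels. The tests used edgeR 4.0.16 under R 4.3.3 (filterByExpr with minimum count 10 and minimum total 15, TMM, group only, quasi-likelihood test, Benjamini-Hochberg adjustment over 13497 genes). Calls needed an adjusted p under 0.05 and a fold change over 2, as in the study. Standard errors were derived from the fold change and its F statistic. On simulated counts for this comparison over 13497 genes, 200 of 200 changed genes were called with 1 false call. These changes all exceeded the fold threshold and were planted only in well counted genes at a fixed dispersion. Recovery of smaller changes, or of genes with few counts, was therefore not checked. Libraries of a group differed beyond sampling noise (chi-square over its degrees of freedom 3.88 to 7.60), so none was a copy. Alternatives were other scalings, filters and fold thresholds, DESeq2 1.42.0, each library left out, the replicate number as a block and ferritin pseudogenes added to their parents. Named were all members and, of each list, genes called at both thresholds (at most 4 each way) or else the largest change. Fech, Ncoa4, Cdc42bpa, Heph, Hmox1, Hmox2, Blvra, Uros, Alad, Urod, Cubn, the genes with few counts and the marker genes with few counts or in 1 library were named after their values were seen. A gene counted in the lists is not reported here by name. The members, lists and tests were chosen with earlier results of these data known.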

Additional observations from a re-analysis of the deposited data

How the results depend on the processing

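Among members, the log2 fold change of Ftl1 was reversed with upper quartile scaling (−0.018). In the test against a fold change of 1.5, Tfrc (0.244), Slc11a2 (0.645), Aco1 (0.282) and Cp (−0.648) no longer passed. Fth1 and Trf did, so 2 members were called higher. Of all 13497 genes tested, 1856 were higher and 1730 lower by that test. Trf could only have been found higher. With at least 10 counts in every sample 0 members were called higher, since that filter removes Trf. Without the fold threshold 5 members were higher and 1 lower, 30 and 12 of the other iron genes, and 4952 and 4960 of all genes. The stricter count filter gave 903 genes called higher. Leaving out each library in turn gave log2 fold changes of 0.216 to 0.276 for Tfrc, 0.787 to 0.836 for Fth1, 0.014 to 0.053 for Ftl1, 0.634 to 0.664 for Slc11a2, 3.032 to 5.755 for Trf, 0.038 to 0.091 for Ireb2, 0.255 to 0.334 for Aco1 and −0.677 to −0.610 for Cp. In every such fit 1 member was called higher and 0 lower. That member was Trf, which passed the expression filter through the KD libraries alone. The replicate numbers did not pair the libraries: same-numbered libraries had correlations of their deviations of 0.0135, −0.0194 and −0.0202. With the replicate block the log2 fold change was 3.758 for Trf and 0.023 for Ftl1, 1316 genes were called lower and 1360 higher, and no call of a member changed. The ratio of Fth1 to Ftl1 differed by 0.760 to 0.800 with a library left out and by 0.786 with ferritin pseudogenes added. The fold threshold does not enter the test of a single member, so leaving it out gives no other value there. Depth limits Slc40a1, at no more than 2 counts, and Trf, whose fold rests on 8 WT counts.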

Other observations

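Iron genes too low to be tested still had counts. Cybrd1, which encodes the ferric reductase of the gut, had 25, 8 and 9 counts in the WT libraries and 0, 3 and 4 in the KD libraries, and DESeq2 called 1 gene of the entry and reductase list lower where edgeR's filter left it out. Hamp, the gene of hepcidin, had 0 counts in every WT library and 0, 1 and 4 in the KD libraries. Tmprss6, a hepcidin suppressor gene, had 8, 1 and 15 counts in WT and 6, 5 and 12 in KD. Alas2, the erythroid form of the first heme enzyme, had 0 in every WT library and 1, 4 and 0 in KD, beside hemoglobin genes such as Hbb-bs with 0, 1 and 2 counts in WT and 48, 23 and 27 in KD.

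WT replicate 3 held counts that the other WT libraries had at lower levels. Krt5, a basal keratin gene, had 92 counts there and 0 in the other 5 libraries, Krt14 had 192 there against 7 and 30 in the other WT libraries, and Muc5b had 85 against 0 and 0. Leaving out that library changed no call of a member at an adjusted p under 0.05, and the log2 fold change of Trf was then 3.03.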
